A study of Mus musculus with 6 samples.

Results

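The genes described here are 7 mouse genes of osteoclast differentiation: Tnfrsf11a, Oscar, Nfatc1, Dcstamp, Ocstamp, Atp6v0d2 and Acp5. They were taken by name, as array probes whose RefSeq accession belongs to a listed gene, out of 20263 genes matched to a probe. Together they had 10 probes, with 2 probes each for 3 genes and 1 probe each for 4 genes. All 7 were among the 13238 genes tested, which were those whose 2 arrays of some group were both well above background, and 5 of the 7 were above background on all 6 arrays.

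The cells were Tot2, 1 myeloid progenitor line from an Irf8 knockout mouse, kept in granulocyte-macrophage colony-stimulating factor (GM-CSF) at 5 ng/ml. IRF8-labelled cells had received the retrovirus MSCV-IRF8FLAG, KLF4-labelled cells MSCV-KLF4FLAG, and control cells the empty vector MSCV-puro. All 3 groups were selected with puromycin at 2 μg/ml starting 48 hr after spinoculation and harvested on day 4, in 2 independent experiments (n = 2 arrays per group, 6 arrays in all). Only transduced cells of this line that survived selection are described, and the labels name neither RANK ligand nor macrophage colony-stimulating factor (M-CSF) among the supplements and do not say which cytokines were in the viral supernatant.

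Osteoclasts are the multinucleated cells that resorb bone, and they form when precursors of the monocyte and macrophage lineage fuse. M-CSF keeps the precursors alive, and RANK ligand, acting on RANK together with immunoreceptor adaptors that carry ITAM motifs, raises calcium and switches on the transcription factor NFATc1. NFATc1 then drives genes for fusion, for acid secretion and for the enzymes of resorption. In mice IRF8 is known as a restraint on this programme, and mice that lack it form more osteoclasts.

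Values are log2 of the scanner's processed signal minus the 75th percentile of the array, so 0 is the level of that percentile. They place 1 probe on different arrays and not different probes against each other. The single Klf4 probe was 5.98 ± 0.16 log2 units above control on IRF8-labelled arrays (SE, limma adjusted p = 1.87e-05) and 0.00 ± 0.16 from control on KLF4-labelled arrays (adjusted p = 0.987), so the KLF4 group is called by its label throughout. Which part of either transcript the probes read is not given in the sources used here. Irf8 probe signal was 2.43 ± 0.10 above control on IRF8-labelled arrays and 1.60 ± 0.10 above control on KLF4-labelled arrays (limma adjusted p = 5.35e-05 and 0.000604). The share of probes well above background was 47.1% to 56.8% per array.

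In IRF8-labelled against control cells, 5 of the 7 genes rose and 1 fell, with a median log2 difference of 2.12. Over all genes tested, 25.8% were called higher, 35.8% lower and 61.6% in either direction (limma, Benjamini-Hochberg adjusted p under 0.05), and the median difference was -0.13. In KLF4-labelled against control cells, 4 of the 7 rose and 0 fell, with a median of 0.89, beside 10.4% of all genes called higher, 8.91% called lower and 19.3% in either direction, and a median of -0.16. Set directly against KLF4-labelled cells, IRF8-labelled cells had 5 of the 7 genes higher and 1 lower, with a median of 0.61, beside 23.7% of all genes higher, 26.9% lower and 50.6% in either direction, and a median of -0.01. The first 2 comparisons share the control arrays. The split of all genes called in KLF4-labelled against control cells, 1373 higher and 1179 lower, depended on the scaling: it was 1260 and 199 with the array median, 1562 and 768 with quantile normalization, 930 and 125 with spike-in probes, and 789 and 265 with normexp. With the replicate number as a block it was 2188 and 4557. Between IRF8-labelled and KLF4-labelled cells, the split of 3141 higher and 3557 lower became 2072 and 3854 with the array median. With 2 arrays against 2, an exact permutation test cannot go below p = 0.333, so every call rests on the spread that limma pools over genes.

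Markers of other cell types moved with the groups, and their counts are read beside the shares of all genes given above. Of 11 tested neutrophil granule markers, 11 were called lower in IRF8-labelled cells, where their summed level was 37.7 to 39.0 against 765 to 913 in control cells, in units of the 75th percentile. In KLF4-labelled cells 6 of them were called lower and 1 higher, at a summed level of 436 to 577. In 5 of 19 alternatives that count of 6 did not stay within 1.5 times its value. Of 13 monocyte and macrophage markers, 11 were called higher and 1 lower in IRF8-labelled cells, while KLF4-labelled cells had 9 higher and 0 lower, with summed levels of 778 to 906 in IRF8-labelled, 525 to 668 in KLF4-labelled and 419 to 522 in control cells. Of 11 dendritic cell markers, 9 were called higher in IRF8-labelled and 4 in KLF4-labelled cells, with summed levels of 340 to 348, of 2.32 to 2.36 and, in control cells, of 0.523 to 0.574. Of 8 progenitor markers, 1 was called higher and 5 lower in IRF8-labelled cells, while KLF4-labelled cells had 0 higher and 3 lower. Their summed levels were 601 to 750 in IRF8-labelled, 1194 to 1850 in KLF4-labelled and 1658 to 2247 in control cells. The count of 3 did not stay within 1.5 times its value in 8 of 19 alternatives. Only 5 of 15 osteoblast and stromal markers were tested, and Sp7, Alpl, Dcn, Lum, Pdgfra and Postn were above background in no group. The summed level of those 15 was 9.35 to 10.6 in IRF8-labelled, 104 to 129 in KLF4-labelled and 1.77 to 2.60 in control cells, most of it in KLF4-labelled cells from Bglap2. The part that any of these markers has in the results for the 7 genes was not tested. In such bulk samples fewer cells of a type and less RNA per cell cannot be told apart.

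**Figure D1:**
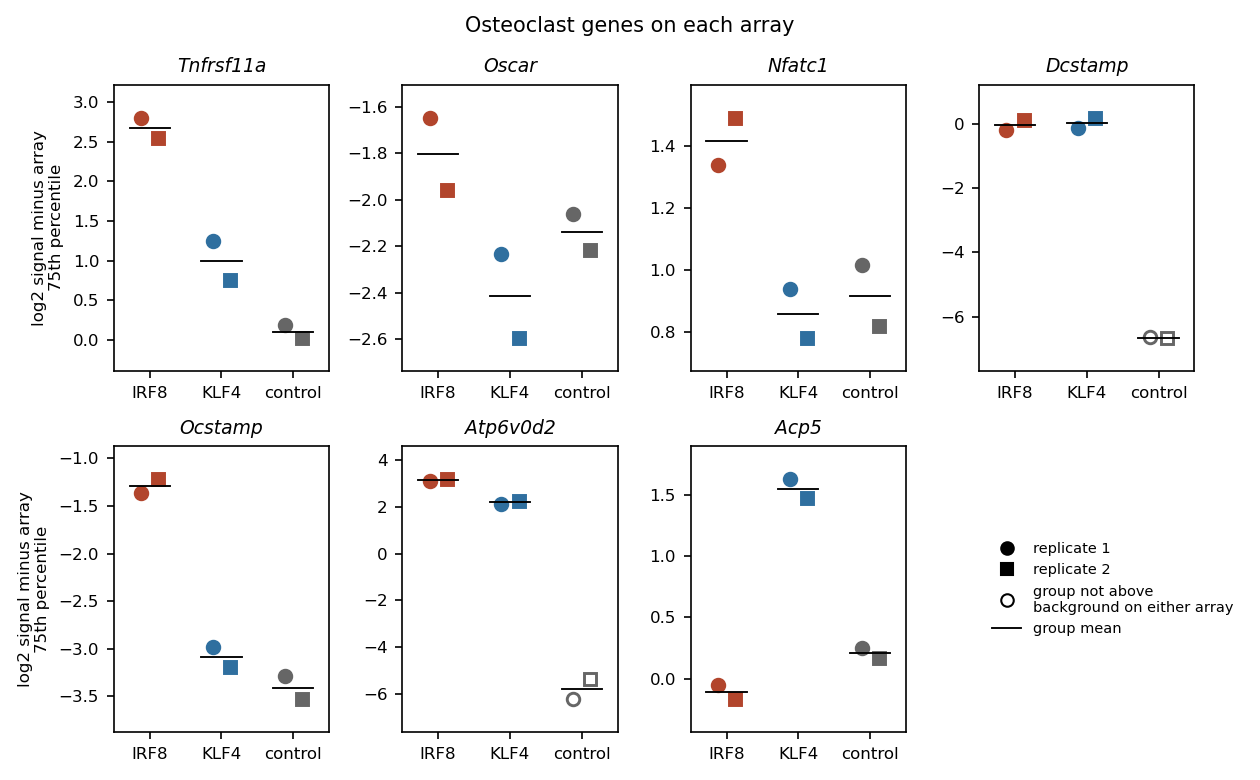
Each panel shows 1 osteoclast gene on its own vertical scale (log2 signal minus the array's 75th percentile), with IRF8-labelled, KLF4-labelled and control arrays from left to right, circles for replicate 1, squares for replicate 2 and a line at the group mean. Open symbols mark the control arrays on which Dcstamp and Atp6v0d2 were not above background, and Acp5 is the gene whose KLF4-labelled arrays, at 1.63 and 1.48, lie above those of both other groups.

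Tnfrsf11a encodes RANK, the receptor for RANK ligand. Its probe (A_55_P2325803) read 2.80 and 2.54 on IRF8-labelled arrays, 1.24 and 0.76 on KLF4-labelled arrays, and 0.18 and 0.02 on control arrays. The 3 groups did not overlap, and both IRF8-labelled arrays lay highest. It rose 5.93-fold in IRF8-labelled against control cells (log2 2.57 ± 0.20 (SE), limma adjusted p = 0.000334). Within the 2 slides, each of which held the arrays of 1 replicate number, the rises were 2.62 and 2.52. In KLF4-labelled cells it rose 1.86-fold (log2 0.89 ± 0.20, limma adjusted p = 0.0385), by 1.06 and 0.73 within slides. That last call was lost in 9 of 18 alternative treatments of the data, 5 of them leaving out 1 array (any but KLF4 replicate 2), with adjusted p-values between 0.00929 and 0.139 over all 18. IRF8-labelled cells had 3.19-fold more Tnfrsf11a signal than KLF4-labelled cells (log2 1.67 ± 0.20, limma adjusted p = 0.00215), and this call held in all 18 alternatives. Its partner ligand Tnfsf11 (RANK ligand) and the decoy receptor Tnfrsf11b were not above background on any array of any group.

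Oscar, the osteoclast-associated receptor, binds collagen and signals through the ITAM adaptor Fcer1g. Its probe (A_55_P1977426) read -1.65 and -1.96 on IRF8-labelled arrays, -2.24 and -2.59 on KLF4-labelled arrays, and -2.06 and -2.22 on control arrays. The IRF8-labelled arrays lay above and the KLF4-labelled arrays below the control arrays, with gaps smaller than the spread within the treated groups. Against control, neither difference passed the test, at 0.34 ± 0.18 in IRF8-labelled cells (95% interval -0.11 to 0.79, limma adjusted p = 0.154) and -0.28 ± 0.18 in KLF4-labelled cells (95% interval -0.73 to 0.17, adjusted p = 0.302). With the replicate number as a block in limma both passed, at adjusted p = 0.0171 in IRF8-labelled cells and 0.0439 in KLF4-labelled cells. Replicate 2 was lower than replicate 1 in every group. Within slides the differences were 0.42 and 0.26 for IRF8-labelled cells and -0.17 and -0.38 for KLF4-labelled cells. Oscar signal of IRF8-labelled cells was 1.53-fold that of KLF4-labelled cells (log2 0.61 ± 0.18, limma adjusted p = 0.0370), a call lost in 9 of 18 alternatives, 4 of them leaving out 1 array (control replicate 1 or 2, adjusted p = 0.0535 each, IRF8 replicate 1, 0.152, or KLF4 replicate 2, 0.151). Fcer1g itself rose in both groups, by 1.96 ± 0.09 in IRF8-labelled and 1.36 ± 0.09 in KLF4-labelled cells (limma adjusted p = 9.27e-05 and 0.000973).

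Nfatc1 encodes the transcription factor that directs the osteoclast programme. Its brighter probe (A_51_P517870) read 1.34 and 1.49 on IRF8-labelled arrays, 0.94 and 0.78 on KLF4-labelled arrays, and 1.02 and 0.82 on control arrays. The KLF4-labelled and control arrays overlapped, and the IRF8-labelled arrays lay above both. It rose 1.41-fold in IRF8-labelled against control cells (log2 0.50 ± 0.12, limma adjusted p = 0.0171), by 0.32 and 0.67 within slides. The other probe (A_51_P220135) differed by 0.19 ± 0.18 in the same comparison (adjusted p = 0.398, limma fit of every probe), and its arrays overlapped between these groups. The first probe's call was lost in 6 of 20 alternatives, 2 of them leaving out 1 array (control replicate 2, with adjusted p = 0.0754, and IRF8 replicate 2, with 0.0861). In KLF4-labelled cells the difference from control was -0.06 ± 0.12 (95% interval -0.37 to 0.25, limma adjusted p = 0.745), and its sign turned with scaling to the array median or to spike-in probes, both giving 0.04. IRF8-labelled cells had 1.47-fold more Nfatc1 signal than KLF4-labelled cells (log2 0.56 ± 0.12, limma adjusted p = 0.0154), also lost in 6 of 20 alternatives, among them without IRF8 replicate 2 (adjusted p = 0.0771) and without KLF4 replicate 2 (0.0825).

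Dcstamp encodes DC-STAMP, a membrane protein that fusing osteoclast precursors need. Its probe (A_55_P2005320) read -0.19 and 0.13 on IRF8-labelled arrays, -0.12 and 0.20 on KLF4-labelled arrays, and -6.65 and -6.66 on control arrays, where it was not above background. The IRF8-labelled and KLF4-labelled arrays overlapped, far above both control arrays. Because the control level is only a bound, the folds here set the treated mean against the lowest signal well above background on the control arrays. Every other fold given as at least a value was found likewise from the 2 groups compared. These bounds hold for the processed signals only, and with another background correction a fitted fold can fall below them. With normexp background correction the fitted folds over control were smaller, at 10.2-fold for IRF8-labelled and 10.9-fold for KLF4-labelled arrays for Dcstamp, and at 59.1-fold and 31.8-fold for Atp6v0d2, and all 4 were still called. On the processed signals Dcstamp rose at least 27.5-fold in IRF8-labelled cells and at least 28.9-fold in KLF4-labelled cells (limma adjusted p = 1.62e-05 and 4.32e-05). These p-values, like others printed beside such bounds, come from the main fit of the signals as read. With dim signals raised to the bound, the limma adjusted p-values were 0.000297 in IRF8-labelled and 0.00126 in KLF4-labelled cells. Between those groups the difference was -0.07 ± 0.16 (95% interval -0.49 to 0.35, limma adjusted p = 0.754), which leaves room for differences up to 0.49 log2 units. Its sign turned to 0.09 without IRF8 replicate 1 or without KLF4 replicate 2.

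Ocstamp encodes OC-STAMP, a relative of DC-STAMP that also takes part in fusion. Its probe (A_51_P360004) read -1.37 and -1.22 on IRF8-labelled arrays, -2.98 and -3.19 on KLF4-labelled arrays, and -3.28 and -3.53 on control arrays. The groups did not overlap, and the KLF4-labelled arrays lay close to control. Ocstamp rose 4.33-fold in IRF8-labelled against control cells (log2 2.12 ± 0.14, limma adjusted p = 0.000202), by 1.92 and 2.32 within slides. This log2 difference ran between 1.27 and 2.24 under 18 alternatives. In KLF4-labelled cells the difference of 0.32 ± 0.14 (95% interval -0.03 to 0.67) did not pass (limma adjusted p = 0.158), and it passed in none of 18 alternatives. Ocstamp signal of IRF8-labelled cells was 3.48-fold that of KLF4-labelled cells (log2 1.80 ± 0.14, limma adjusted p = 0.000629). That call was kept in all 18, with log2 differences between 1.27 and 1.90. The 2 fusion genes therefore had different orders of the groups: for Dcstamp the IRF8-labelled and KLF4-labelled arrays overlapped, while for Ocstamp they stood 1.62 and 1.98 apart within slides.

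Atp6v0d2 encodes the d2 subunit of the vacuolar proton pump (V-ATPase), which osteoclasts use for acid secretion and which is also needed for precursor fusion in mice. Its brighter probe (A_66_P124179) read 3.09 and 3.19 on IRF8-labelled arrays, 2.13 and 2.25 on KLF4-labelled arrays, and -6.24 and -5.38 on control arrays, where it was not above background. No groups overlapped. It rose at least 248-fold in IRF8-labelled cells and at least 128-fold in KLF4-labelled cells (limma adjusted p = 2.93e-05 and 0.000116). With dim signals raised to the bound, the limma adjusted p-values were 6.02e-05 and 0.000294. The other probe (A_52_P71686) gave at least 26.6-fold and at least 16.1-fold in the same comparisons. IRF8-labelled arrays stood above KLF4-labelled arrays by 0.96 and 0.94 within slides (log2 0.95 ± 0.29, limma adjusted p = 0.0425). That call was lost in 10 of 19 alternatives, among them the 4 that left out an IRF8-labelled or KLF4-labelled array (adjusted p = 0.111 to 0.148), and the other probe gave 0.73 ± 0.34 (adjusted p = 0.139, limma fit of every probe).

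Acp5 encodes tartrate-resistant acid phosphatase, the enzyme stained to count osteoclasts and also made by some macrophages. Its brighter probe (A_55_P2037608) read -0.05 and -0.17 on IRF8-labelled arrays, 1.63 and 1.48 on KLF4-labelled arrays, and 0.25 and 0.17 on control arrays. The KLF4-labelled arrays lay highest and the IRF8-labelled arrays lowest, with no overlap. Acp5 rose 2.54-fold in KLF4-labelled against control cells (log2 1.34 ± 0.10, limma adjusted p = 0.00127). In IRF8-labelled cells it fell by 0.32 on the log2 scale (SE 0.10, limma adjusted p = 0.0412), a call lost in 9 of 20 alternatives, among them each of the 6 fits that left out 1 array (adjusted p = 0.0574 to 0.183). IRF8-labelled against KLF4-labelled cells differed by -1.67 ± 0.10 (limma adjusted p = 0.000350), which is 3.17-fold more signal in KLF4-labelled cells, and this held in all 20 alternatives. The other probe (A_55_P1997766) gave -0.42 for IRF8-labelled against control, 1.31 for KLF4-labelled against control and -1.73 for IRF8-labelled against KLF4-labelled cells, all 3 called. Among the 7 genes, Acp5 was the only one called lower in either comparison that involved IRF8-labelled cells.

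**Figure D2:**
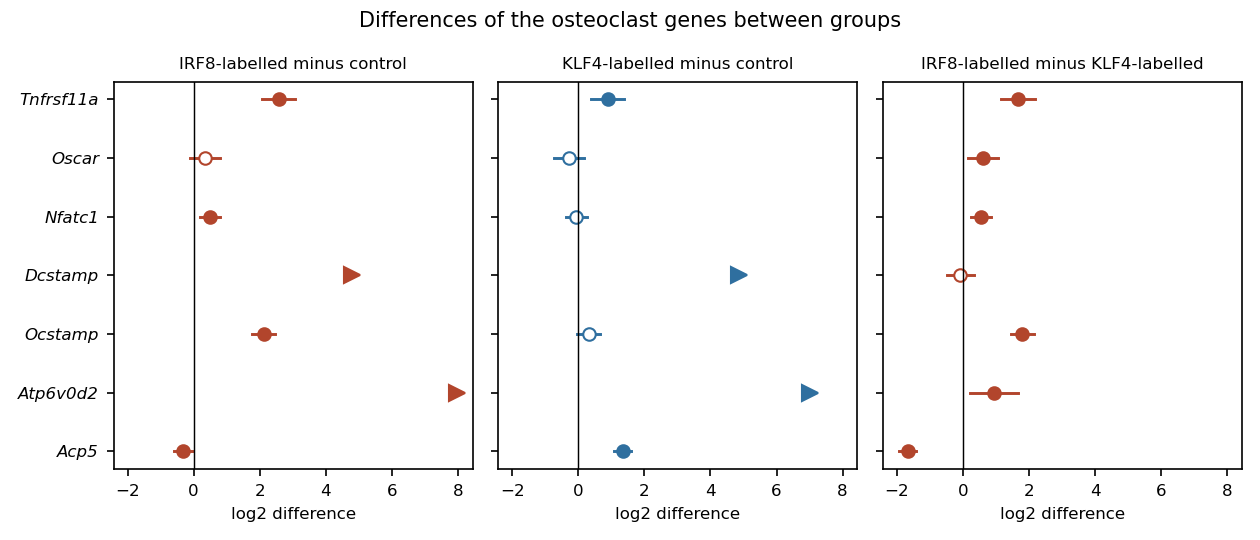
Log2 differences of the 7 osteoclast genes (horizontal axis) are drawn for IRF8-labelled minus control, KLF4-labelled minus control and IRF8-labelled minus KLF4-labelled cells, with 95% intervals from limma, filled circles for adjusted p under 0.05 and open circles for the rest. Triangles mark lower bounds, for the processed signals only, where control arrays were not above background (at least 27.5-fold and 28.9-fold for Dcstamp, at least 248-fold and 128-fold for Atp6v0d2). Acp5, at -1.67, is the gene left of 0 in the right panel with an interval that does not reach 0.

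RefSeq windows upstream of transcription starts (GRCm38.p6, 250 bases each) were at hand for 3 of the 7 genes: 3 windows for Acp5 and 1 each for Tnfrsf11a and Oscar. Those of 2 Acp5 starts on chromosome 9, minus strand, are printed because Acp5 was the gene with opposite calls in the IRF8-labelled and KLF4-labelled groups, and because each holds a motif of a factor family named in this field. The distal window is chr9:22135747-22135996 and the proximal window chr9:22130599-22130848. Capitals mark GGGTGTGG (a KLF family motif) and GGAAAA (an NFAT motif) in the distal window and TCANNTGA (an E-box of the MITF family) in the proximal one.
Acp5 distal window: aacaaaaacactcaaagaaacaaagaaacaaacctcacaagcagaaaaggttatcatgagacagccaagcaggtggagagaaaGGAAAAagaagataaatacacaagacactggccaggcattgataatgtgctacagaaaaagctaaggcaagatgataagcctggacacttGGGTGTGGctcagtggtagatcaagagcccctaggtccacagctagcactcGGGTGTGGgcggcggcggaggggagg
Acp5 proximal window: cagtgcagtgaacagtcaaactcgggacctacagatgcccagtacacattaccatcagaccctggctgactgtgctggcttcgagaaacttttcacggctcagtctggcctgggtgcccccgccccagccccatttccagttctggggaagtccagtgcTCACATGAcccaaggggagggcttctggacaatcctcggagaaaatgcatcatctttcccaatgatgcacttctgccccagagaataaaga
The 2 GGGTGTGG matches of the distal window began 77 and 26 bases before the start, and its GGAAAA match 167 bases before it. The E-box match of the proximal window began 91 bases before its start. On either strand, GGGTGTGG occurs in 3.20% of 32851 such windows, GGAAAA in 20.4% and TCANNTGA in 7.09%, and no match here overlaps another. The motifs were chosen after the windows had been seen, and a match is a string of letters and not a measured binding site. The Oscar window held GGAAAA beginning 250 and 83 bases before the start and GAGGAA beginning 237 bases before it, and the third Acp5 window held none of the motifs. The Tnfrsf11a window held none of the 6 motifs searched, which besides these were TGANTCA (AP-1), GAGGAA (ETS) and the composite element of ETS and IRF factors.

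Of 28 tested genes of RANK and M-CSF signalling, 15 were called higher and 5 lower in IRF8-labelled cells (median log2 difference 0.44). In KLF4-labelled cells 9 were called higher and 0 lower (median 0.02). The count of 5 lower did not stay within 1.5 times its value in 5 of 19 alternatives, and the count of 0 was above 0 in 5 of 19. Over all genes tested, 25.8% were called higher and 35.8% lower in IRF8-labelled against control cells. In KLF4-labelled against control cells the shares were 10.4% and 8.91%. The counts of this list and of those below are read beside these shares. Csf1r, the M-CSF receptor, read 6.66 and 6.69 on IRF8-labelled arrays, 4.94 and 4.96 on KLF4-labelled arrays, and 1.09 and 1.24 on control arrays, with no overlap (limma adjusted p = 7.22e-06 and 4.32e-05 against control). Fos, an AP-1 subunit that osteoclast precursors require, rose 11.7-fold in IRF8-labelled cells and 6.28-fold in KLF4-labelled cells (limma adjusted p = 4.97e-05 and 0.000371). Relb, a subunit of the alternative NF-κB pathway, rose 5.02-fold and 4.68-fold in the same comparisons (adjusted p = 0.000134 and 0.000531). Traf6, the adaptor that links RANK to its kinases, did not pass against control, at -0.34 ± 0.14 in IRF8-labelled and -0.30 ± 0.14 in KLF4-labelled cells (limma adjusted p = 0.0896 and 0.196), though with the replicate block both differences were called (adjusted p = 0.00642 and 0.0197).

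Of 22 tested genes of ITAM and calcium signalling, 12 were called higher and 4 lower in IRF8-labelled cells (median 0.48), and 9 higher and 0 lower in KLF4-labelled cells (median 0.35). The count of 4 lower did not stay within 1.5 times its value in 8 of 19 alternatives, and the count of 0 was above 0 in 2 of 19. Trem2, a receptor that pairs with the adaptor Tyrobp, read 2.92 and 3.20 on IRF8-labelled arrays, 3.12 and 3.31 on KLF4-labelled arrays, and -5.74 and -4.45 on control arrays, of which 1 of 2 was above background. It rose in both groups (limma adjusted p = 0.000113 and 0.000360). Tyrobp (DAP12) rose 2.46-fold in IRF8-labelled cells (log2 1.30 ± 0.20, limma adjusted p = 0.00353), and in KLF4-labelled cells its difference was 0.53 ± 0.20 (adjusted p = 0.127), which was called with the replicate block (adjusted p = 0.0226) and with quantile normalization (adjusted p = 0.00315). Trem1, another Tyrobp partner, had the reverse order, with a 3.68-fold rise in KLF4-labelled cells (adjusted p = 0.000352) and a difference of 0.13 ± 0.10 in IRF8-labelled cells (adjusted p = 0.292). The linker gene Blnk rose at least 27.3-fold in IRF8-labelled cells on the processed signals (limma adjusted p = 1.14e-05). Its log2 difference there ran between 3.21 and 6.91 under the alternatives. In KLF4-labelled cells Blnk counts among the 9 higher genes although it was above background in neither KLF4-labelled nor control cells, and its sign turned with normexp or a floor on dim signals.

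Of 14 tested transcription factors known to favour osteoclast formation, 8 were called higher and 3 lower in IRF8-labelled cells (median 0.53), and 1 higher and 0 lower in KLF4-labelled cells (median 0.14). In KLF4-labelled cells the count called higher ran between 1 and 5 under the alternatives, and the count called lower between 0 and 3. Mitf, which drives Acp5 and Ctsk in osteoclasts, rose 3.55-fold in IRF8-labelled cells and 1.99-fold in KLF4-labelled cells (limma adjusted p = 0.000134 and 0.00370). Nfatc2, a relative of Nfatc1, rose 3.88-fold in IRF8-labelled cells (log2 1.96 ± 0.15, adjusted p = 0.000339), and its difference in KLF4-labelled cells was -0.25 ± 0.15 (adjusted p = 0.281), called lower only with the replicate block among the alternatives (adjusted p = 0.0217). Prdm1, which encodes the repressor Blimp1, was above background in IRF8-labelled cells and in neither other group. On the processed signals it rose at least 3.78-fold against control (limma adjusted p = 0.000312). With normexp the rise was 1.63-fold and the call was lost (limma adjusted p = 0.0663). Myc fell by 2.06 in IRF8-labelled cells (SE 0.15, limma adjusted p = 0.000276).

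Of 25 tested genes known to restrain osteoclast formation, 19 were called higher and 0 lower in IRF8-labelled cells (median 2.01), and 12 higher and 1 lower in KLF4-labelled cells (median 0.76). The list includes Irf8, the gene supplied by 1 of the vectors. Bcl6, a repressor of Nfatc1 and Dcstamp in mice, read 4.01 and 4.26 on IRF8-labelled arrays, 0.34 and 0.50 on KLF4-labelled arrays, and -4.09 and -3.22 on control arrays, of which 1 of 2 was above background. It rose in both groups (limma adjusted p = 4.87e-05 and 0.00115). The inhibitory receptor genes Pirb and Lilrb4a rose 120-fold and 31.2-fold in IRF8-labelled cells (adjusted p = 6.31e-06 and 2.30e-05). In KLF4-labelled cells Pirb rose 17.0-fold and Lilrb4a 12.7-fold (adjusted p = 4.57e-05 and 0.000154).

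Of 15 tested fusion genes other than the members, 10 were called higher and 3 lower in IRF8-labelled cells (median 4.01), and 11 higher and 0 lower in KLF4-labelled cells (median 1.95). Cd9, a tetraspanin at the fusing membrane, read 0.51 and 0.78 on IRF8-labelled arrays, 4.56 and 4.54 on KLF4-labelled arrays, and -3.51 and -3.20 on control arrays. It rose in both groups (limma adjusted p = 4.53e-05 and 2.51e-05). It was highest on KLF4-labelled arrays, with an IRF8-labelled minus KLF4-labelled difference of -3.90 ± 0.15 (limma adjusted p = 0.000135). The chemokine gene Ccl2 and the integrin gene Itgax, which is also a dendritic cell marker, had the reverse order, with IRF8-labelled cells above KLF4-labelled cells by 4.96 ± 0.08 and 5.96 ± 0.23 (adjusted p = 2.53e-05 and 0.000135). Cd44, an adhesion receptor, rose 4.11-fold in IRF8-labelled cells and 3.87-fold in KLF4-labelled cells (adjusted p = 0.000180 and 0.000767).

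**Figure D3:**
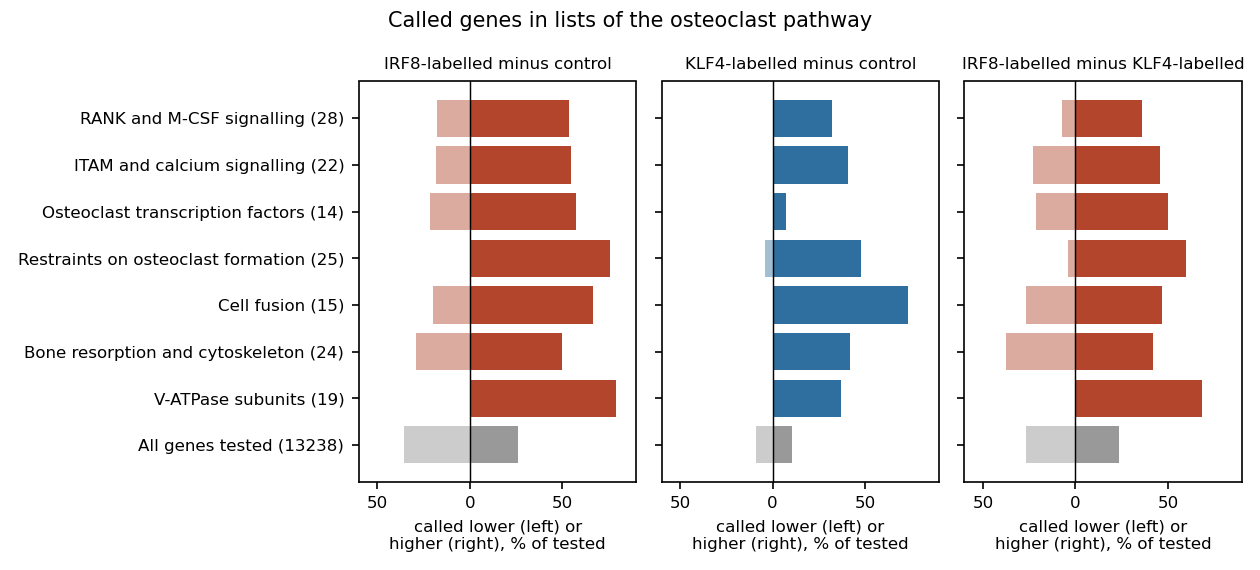
Bars give the share of tested genes called higher (right of 0) and lower (left of 0, paler) at limma adjusted p under 0.05 in 7 lists of the osteoclast pathway, with the number tested in parentheses and all 13238 genes in grey at the foot. In IRF8-labelled against control cells the lists of restraints and of V-ATPase subunits had 0 genes called lower, beside 35.8% of all genes. Each of these counts was above 0 in 2 of 19 alternatives.

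Of 24 tested genes of bone resorption and its cytoskeleton, 12 were called higher and 7 lower in IRF8-labelled cells (median 0.41), and 10 higher and 0 lower in KLF4-labelled cells (median 0.35). Between the treated groups, 10 were called higher and 9 lower in IRF8-labelled cells, beside 23.7% and 26.9% of all genes. The count of 10 did not stay within 1.5 times its value in 2 of 19 alternatives, and the count of 9 in 1. The count of 7 lower against control did not in 2 of 19. Ctsk, the collagen-degrading cathepsin of osteoclasts, read 2.55 and 2.68 on IRF8-labelled arrays, 1.65 and 1.84 on KLF4-labelled arrays, and -3.88 and -5.10 on control arrays, of which 1 of 2 was above background. It rose in both groups (limma adjusted p = 0.000140 and 0.000754), by 5.10 and 4.28 log2 units with normexp and by between 6.49 and 7.72 and between 5.62 and 6.85 when 1 control array was left out. Mmp9, a matrix protease that is also a neutrophil granule marker, was not above background on IRF8-labelled arrays and read -2.28 and -1.95 on KLF4-labelled arrays and -4.24 and -3.87 on control arrays. It was at least 7.41-fold higher in KLF4-labelled than in IRF8-labelled cells (limma adjusted p = 0.000243). Against control it was at least 1.93-fold lower in IRF8-labelled cells and 3.85-fold higher in KLF4-labelled cells (limma adjusted p = 0.000633 and 0.00536). Both of these calls were lost with normexp background correction, which gave 1.55-fold lower and 1.86-fold higher (limma adjusted p = 0.0579 and 0.0714).

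Car2, the carbonic anhydrase that supplies protons, read -1.98 and -1.73 on IRF8-labelled arrays, -0.02 and 0.03 on KLF4-labelled arrays, and -0.80 and -0.57 on control arrays. It fell by 1.17 in IRF8-labelled cells (SE 0.13, limma adjusted p = 0.00116) and was 3.63-fold higher in KLF4-labelled than in IRF8-labelled cells. Its rise of 0.69 ± 0.13 in KLF4-labelled against control cells (adjusted p = 0.0273) was lost in 5 alternatives. Itgb3, the β3 chain of the osteoclast vitronectin receptor, was not above background on IRF8-labelled arrays and at least 8.61-fold higher in KLF4-labelled cells (limma adjusted p = 0.000128). Its α chain gene Itgav missed the threshold in the 3 comparisons by its brightest probe (adjusted p = 0.213 to 0.623). With the replicate block it was called higher against control in IRF8-labelled and in KLF4-labelled cells (adjusted p = 0.0390 and 0.0231). With the mean of its probes it was called in IRF8-labelled cells (adjusted p = 0.0222). Another Itgav probe was called higher in IRF8-labelled against control cells (log2 0.52 ± 0.16, adjusted p = 0.0364, limma fit of every probe). That probe was not called in the other comparisons (adjusted p = 0.337 and 0.190). Src, a kinase that organises the resorbing membrane, was not above background on IRF8-labelled arrays and read -3.20 and -4.69 on KLF4-labelled arrays and -3.82 and -3.78 on control arrays. Its fall in IRF8-labelled against control cells was at least 2.30-fold. The fit of the signals as read called this fall (limma adjusted p = 0.0272). The call was lost in 7 alternatives, among them a floor on dim signals, which gave 2.30-fold at limma adjusted p = 0.106. The acid transport genes Clcn7 and Tcirg1 had the order of Tnfrsf11a, with rises of 2.75-fold and 3.39-fold in IRF8-labelled cells (adjusted p = 0.00140 and 0.000171). Their rises of 1.79-fold and 1.66-fold in KLF4-labelled cells (adjusted p = 0.0331 and 0.0127) were lost in 7 and 4 alternatives. Calcr, the calcitonin receptor gene of mature osteoclasts, was above background in no group.

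**Figure D4:**
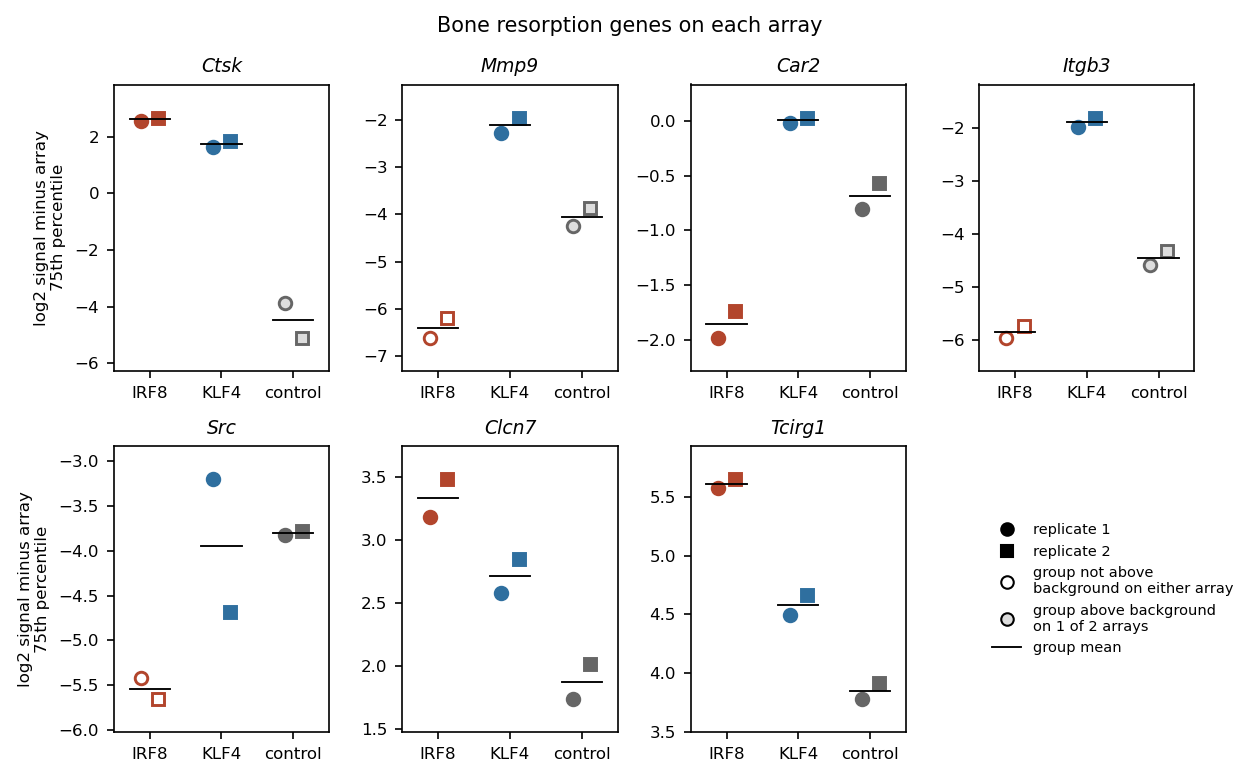
Each panel shows 1 gene of bone resorption on its own vertical scale (log2 signal minus the array's 75th percentile), with IRF8-labelled, KLF4-labelled and control arrays from left to right, a line at the group mean, open symbols where a group was above background on neither array and grey fill where it was on 1 of 2. Mmp9, Car2 and Itgb3 had KLF4-labelled arrays highest and IRF8-labelled arrays lowest, as Acp5 did, while Ctsk, Clcn7 and Tcirg1 had IRF8-labelled arrays highest.

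Of 19 tested V-ATPase subunits other than Atp6v0d2, 15 were called higher and 0 lower in IRF8-labelled cells (median 0.82), and 7 higher and 0 lower in KLF4-labelled cells (median 0.37). The KLF4-labelled count ran between 0 and 12 under the alternatives. Atp6v0d1, the widely expressed counterpart of Atp6v0d2, read 5.56 and 5.72 on IRF8-labelled arrays, 4.53 and 4.76 on KLF4-labelled arrays, and 4.02 and 4.17 on control arrays, above background throughout. It rose 2.92-fold in IRF8-labelled cells (log2 1.54 ± 0.12, limma adjusted p = 0.000395). In KLF4-labelled cells its rise was 1.46-fold (log2 0.55 ± 0.12, adjusted p = 0.0424) and was lost in 11 alternatives. The control cells had signal from the d1 subunit gene and none above background from the d2 subunit gene.

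The genes nearest to each member in pattern were found by the Euclidean distance between log2 values centred on each gene's mean over the 6 arrays. For Tnfrsf11a the nearest was Slc38a6, a transporter gene, at a distance of 0.197. For Acp5 the nearest was Arhgef3, at 0.288, followed by Klf2, a Kruppel-like factor gene, at 0.319. Arhgef3 was 1.47 log2 units higher in KLF4-labelled than in control cells, and Klf2 was 1.34 higher. For Ocstamp it was Nostrin at 0.272, for Nfatc1 Pcsk1n at 0.148, and for Oscar Erp29 at 0.0828. For the 2 members that were below background in control cells the nearest were farther, Igf2r for Dcstamp at 0.487 and Itgb7 for Atp6v0d2 at 0.588. No member was among the 3 nearest genes of another member, and with 6 arrays in 3 groups such distances describe these arrays only.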

How the data were processed

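RNA was read on Agilent 1-colour arrays (Cy3, 62976 spots). Per the file headers, the authors deposited processed signal intensity per spot from Feature Extraction 10.7.3.1, already background-adjusted, and their value table holds these signals multiplied by 1 factor per array (0.642 to 1.39); on each array 120 to 163 probes departed from this by over 1%. That table, in intensity units as deposited, was used only as an alternative. Probes were named through RefSeq accessions (26762 of 55681 probes matched a gene), and the genome build behind the array design is not given in the sources used here. Flagged spots were left out, which lost 75 probes. The processed signals of spots of the same probe were averaged before the log2 step. Each array's log2 75th percentile was then subtracted. The brightest probe stood for its gene. All 6 arrays entered 1 limma fit of 3 groups (limma 3.58.1, R 4.3.3, lmFit and eBayes, two-sided, 3 residual degrees of freedom), with Benjamini-Hochberg adjustment over 13238 genes and a threshold of 0.05. The fit was tested on simulated data first. The number of arrays limits the precision, and no spot of any array was saturated.

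Replicate number and slide coincide, and that each number is 1 of the 2 experiments is inferred from the labels. Deviations of same-numbered arrays correlated at 0.283 between IRF8-labelled and control, 0.321 between KLF4-labelled and control and 0.391 between the treated groups, so the numbers pair the arrays. Slide and experiment cannot be told apart here. The block was an alternative, and its value stands beside a result where it changed the call. The 19 alternatives were 3 other scalings, normexp (offset 50), the value table, 3 treatments of dim probes, 2 of several probes per gene, trended and robust eBayes, the block, only the groups compared, and each of 6 arrays left out, where a lone array is assumed to vary like the other groups. Normexp was run on median spot signals, a choice made after seeing the data because a mean signal column was not found. Genes described outside the members were drawn from the up to 5 largest called differences per list and comparison, a list of fixed names, and the 3 nearest genes in pattern. Not all of these are described, and 1 is not reported here. The members and lists were chosen with earlier results of these data known. Sequences are from RefSeq, and the figures were drawn with matplotlib 3.10.9.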

Additional observations from a re-analysis of the deposited data

Results flagged for a closer look

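The effects on Acp5 against the same control arrays ran opposite ways in the IRF8-labelled and KLF4-labelled groups. Acp5 was lower on both IRF8-labelled arrays (log2 difference -0.32 ± 0.10, SE) and higher on both KLF4-labelled arrays (1.34 ± 0.10), and the direct limma test of IRF8-labelled against KLF4-labelled cells gave -1.67 (adjusted p = 0.000350). The call of the lower level in IRF8-labelled cells was lost in each of the 6 fits that left out 1 array (adjusted p 0.0574 to 0.183). Oscar also ran opposite ways (0.34 for IRF8-labelled and -0.28 for KLF4-labelled arrays), and these differences from control were called with the replicate block (adjusted p = 0.0171 and 0.0439) but not in the fit without it.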

How the results depend on the processing

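For the 7 genes in 3 comparisons, 333 alternative values kept their direction and their side of the threshold, 49 lost the call, 2 gained one and 6 turned sign without a call. The turned values were Nfatc1 in KLF4-labelled against control cells (-0.06 as reported, 0.041 with median scaling, 0.035 with spike-in scaling, and between -0.156 and 0.041 when an array was left out, above 0 without control replicate 1 and without KLF4 replicate 2) and Dcstamp between IRF8-labelled and KLF4-labelled cells (-0.07 as reported, between -0.230 and 0.093 when an array was left out, above 0 without IRF8 replicate 1 and without KLF4 replicate 2). The osteoclast genes called in IRF8-labelled against control cells were 6, between 4 and 7 under the alternatives. In KLF4-labelled against control cells they were 4, between 2 and 5, with 2 when only genes above background on all 6 arrays were kept, which leaves out Dcstamp and Atp6v0d2. Between IRF8-labelled and KLF4-labelled cells they were 6, falling to 3 with median scaling, 3 with spike-in scaling and 3 with no filter on dim probes, and running between 3 and 5 when an array was left out, with 3 without KLF4 replicate 2. The replicate block gave 7, 5 and 6. The cause of these shifts was not tested. Of all genes, those called in KLF4-labelled against control cells were 2552, and 1459 with median scaling, 1055 with spike-in scaling, 1054 with normexp, 974 with no filter, 6745 with the replicate block, 1497 with only the 2 groups compared, and 882 to 1497 when an array was left out. Spike-in scaling gave 4879 in place of 8148 for IRF8-labelled against control and 3156 in place of 6698 for IRF8-labelled against KLF4-labelled cells. Median scaling moved the median difference of all genes by over 0.1 log2 units only between IRF8-labelled and KLF4-labelled cells, to -0.17, and spike-in scaling did the same, so a difference there is read against that shift. Of the counts in the pathway and marker lists under the alternatives, 1217 stayed within 1.5 times the reported count and 151 did not. Values of Dcstamp and Atp6v0d2 in control cells are limited by background.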
